A study of Mus musculus with 8 samples.

Results

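The genes described here encode 10 molecular chaperones of the cytosol, the nucleus and the mitochondrion that belong to the heat shock group: the small heat shock proteins Hspb1 and Cryab, the Hsp70 proteins Hspa1a, Hspa1b and Hspa8, their helpers Hsph1 and Dnajb1, the cytosolic Hsp90 gene Hsp90aa1, and the mitochondrial chaperonin genes Hspd1 and Hspe1. They were chosen by name, and a probe set was assigned to a gene only where the platform annotation gave that symbol and no other. This left 25 probe sets for the 10 genes, out of 45037 probe sets and 18193 genes with a probe set of their own. Each gene was read from its brightest probe set, the one with the highest mean over all arrays, and all 10 were bright enough to be tested.

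The study profiled mouse cells on a C57BL/6 background during induced reprogramming with OSKM, the factors Oct4, Sox2, Klf4 and Myc, in a secondary system in which doxycycline starts the process. All cultures received doxycycline, written in the labels as 2 mg/ml, in a medium for mouse embryonic stem cells that held 15% serum and 100 units/ml of leukemia inhibitory factor. The 4 groups were the control DMSO and the treatment CSA, each sampled on day 3 and on day 6 of reprogramming, with 2 arrays a group that the submitters call biological repeats. CSA was given to inhibit the calcineurin-NFAT pathway, at a dose the labels write as 10 mM. Both doses are printed as labelled, and whether their units are right could not be checked. The sources used here name neither the cell type from which reprogramming started nor the promoter that drives the factors.

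Chaperones bind unfolded or newly made proteins and help them to fold. Under heat, oxidants or other sources of misfolded protein, heat shock factor 1 is released from chaperones, forms trimers and binds heat shock elements, which are inverted repeats of the unit GAA. The inducible genes of the family (Hspa1a, Hspa1b, Hspb1, Dnajb1, Hsph1) are textbook targets of this factor, whereas Hspa8 is made in most cells without stress. Rapidly growing cells, embryonic stem cells among them, hold high levels of the general chaperones.

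The promoter sequences are shown because shared heat shock elements are the classical link among these genes. In the RefSeq promoter table (build GRCm38.p6; windows from 250 bases before to 50 bases after a start site) 7 of the 10 genes had an entry, and Cryab, Hspa8 and Hsp90aa1 had none. The windows were searched on both strands for a pair of heat shock units, GAANNTTC or TTCNNGAA, and for 3 units in a row, which is such a pair followed by NN and the next unit in turn (GAA after GAANNTTC, TTC after TTCNNGAA). The 150 bases before the start sites of Hspb1 (chr5:135887769-135887918, plus strand), Hspa1a (chr17:34972157-34972306, minus strand) and Hspa1b (chr17:34959239-34959388, minus strand) read as follows, with the paired units in capitals.
Hspb1: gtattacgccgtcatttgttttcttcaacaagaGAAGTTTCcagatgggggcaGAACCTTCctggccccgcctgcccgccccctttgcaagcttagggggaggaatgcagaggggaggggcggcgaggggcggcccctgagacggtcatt
Hspa1a: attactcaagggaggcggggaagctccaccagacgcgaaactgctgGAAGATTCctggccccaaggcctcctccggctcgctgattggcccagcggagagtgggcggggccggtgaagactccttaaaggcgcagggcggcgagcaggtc
Hspa1b: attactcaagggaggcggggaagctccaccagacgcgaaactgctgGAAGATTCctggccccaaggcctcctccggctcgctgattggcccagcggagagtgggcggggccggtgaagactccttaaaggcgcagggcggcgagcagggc

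The Hspb1 window held 2 paired units, starting 117 and 97 bases before the start site. The Hspa1a and Hspa1b windows differed at 4 of 300 bases (98.7% identical), and their start sites lie 12918 bases apart on chromosome 17. Short stretches with 3 units in a row, again in capitals, came from the shared promoter of Hspe1 and Hspd1 (chr1:55088053-55088082, printed on the plus strand for Hspe1 and on the minus strand for Hspd1) and from 20 to 49 bases after a start site of Hsph1 (chr5:149636287-149636316, minus strand).
Hspe1: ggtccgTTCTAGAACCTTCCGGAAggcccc
Hspd1: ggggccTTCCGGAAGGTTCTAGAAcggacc
Hsph1: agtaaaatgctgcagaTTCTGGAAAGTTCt

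Pairs of units were found for 6 of the 7 genes with a window and in 15.1% of the 32851 mouse promoter windows. The 3-unit motif was found for 3 of the 7 genes and in 0.603% of all windows. These matches do not count separately: Hspe1 and Hspd1 share 1 stretch of DNA, since they are transcribed in opposite directions from start sites 216 bases apart in the Hspd1 window printed here, and Hspa1a and Hspa1b have nearly the same promoter. A second Hspd1 window, whose start site lies 95 bases from that of Hspe1 on the other side, held neither motif, and nor did either Dnajb1 window. The CCAAT box (CCAAT or ATTGG), a general promoter element, was found for 5 of the 7 genes and in 37.4% of all windows.

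The arrays separated first by day. Over all tested probe sets the correlation was 0.968 to 0.974 between arrays of a group, 0.957 to 0.963 between treatments on the same day and 0.918 to 0.943 between days. Of 8 pluripotency markers only Pou5f1, Esrrb, Dppa5a and Utf1 passed the filter on dim probe sets, while Sox2, Nanog, Zfp42 and Tdgf1 did not. All 6 markers of simple epithelium and all 8 fibroblast markers passed it. These are mixed cultures read in bulk, so fewer cells of a type and less RNA per cell cannot be told apart.

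At day 3, 5 of the 10 heat shock genes were lower with CSA and 0 were higher. All 10 had a negative difference, and those that passed the threshold were Hspb1, Cryab, Hspa1b, Hsph1 and Dnajb1, which were 1.24-fold to 1.48-fold lower. The others, Hspa1a, Hspa8, Hsp90aa1, Hspd1 and Hspe1, lay between -0.17 and -0.04 on the log2 scale and did not pass. The test was limma's moderated test with Benjamini-Hochberg adjustment over all 27022 tested probe sets, and a gene passed where its adjusted p was under 0.05. Of all tested probe sets 9.58% passed in either direction, 4.23% passed as lower and 5.35% as higher. The 10 genes are brighter than most of these. Their mean signal lay at percentile 73.4 of all probe sets for Hspa1a and from 92.3 to 99.96 for the others. With the filter at the 60th percentile, which tests fewer probe sets, 2991 instead of 2588 passed, and again 5 of the 10 genes. The median log2 difference was -0.24 over the 10 genes and -0.01 over all tested probe sets. In 9 of the 10 genes both CSA arrays lay below both DMSO arrays, an arrangement in either direction that 51.6% of all tested probe sets shared.

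Epithelial markers moved in the same groups at day 3, where 5.35% of all tested probe sets passed as higher and 4.23% as lower. Of 6 markers of simple epithelium 4 were higher with CSA, while the other two lay below 0, down to -0.48, and by limma had an unadjusted p under 0.05 without passing. Of 7 tested keratinocyte markers 2 passed as higher and 0 as lower, and at an unadjusted limma p under 0.05 there were 3 higher and 0 lower. The summed signal of the simple epithelium list on the log2 scale was 14.32 and 14.39 with DMSO and 14.67 and 14.66 with CSA, and that of the keratinocyte list was 12.54 and 12.59 with DMSO and 13.13 and 13.24 with CSA. The fibroblast list read 14.43 and 14.33 with DMSO and 14.31 and 14.32 with CSA. Their part in the day 3 result was not tested.

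**Figure D1:**
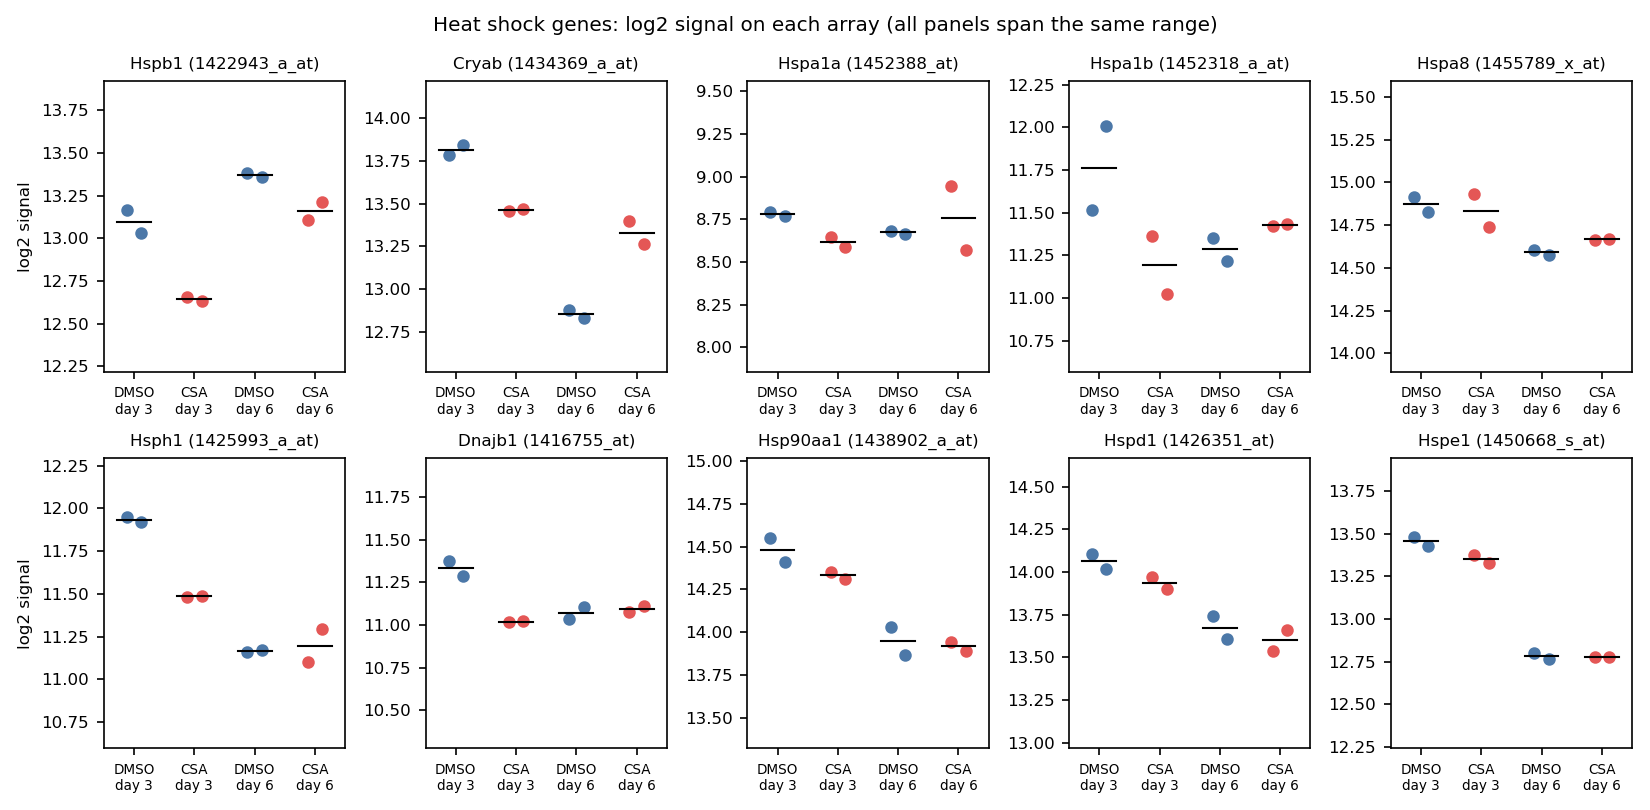
Log2 signal (vertical axis) of the 10 heat shock genes on each of the 8 arrays, by group. Points are single arrays, black lines are group means, and each panel spans the same range of log2 units around its own mean. Hspb1, Cryab, Hsph1 and Dnajb1 show the lower CSA arrays at day 3, and Cryab the higher CSA arrays at day 6.

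Hspb1 encodes the small heat shock protein known as Hsp25 in the mouse, which holds unfolding proteins and binds actin filaments. Its log2 signal was 13.16 and 13.03 on the DMSO arrays and 12.65 and 12.63 on the CSA arrays of day 3, so the groups lay well apart. The difference was -0.45 ± 0.07 (moderated SE, n = 2 arrays per group; limma adjusted p = 0.00162), a 1.37-fold lower signal. At day 6 the arrays read 13.38 and 13.36 with DMSO and 13.11 and 13.21 with CSA, again without overlap. This smaller difference of -0.21 ± 0.07 did not pass (limma adjusted p = 0.0699), although the second Hspb1 probe set did at -0.32 ± 0.07 (limma adjusted p = 0.0142), as did the first after quantile normalisation (-0.23, adjusted p = 0.0290). The change of the CSA effect between the days was 0.24 (limma adjusted p = 0.187) and did not pass.

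Cryab encodes alphaB-crystallin, the other abundant small heat shock protein, best known from lens and muscle. It was the only one of the 10 genes to pass in opposite directions on the 2 days. At day 3 the signal was 13.79 and 13.84 with DMSO and 13.46 and 13.47 with CSA, a difference of -0.35 ± 0.06 (limma adjusted p = 0.00516). At day 6 it was 12.88 and 12.83 with DMSO and 13.40 and 13.27 with CSA, a difference of 0.48 ± 0.06 (limma adjusted p = 0.000788), or 1.39-fold higher. The test of the change itself gave 0.83 ± 0.09 (limma adjusted p = 0.000914). The second tested Cryab probe set read -0.40 at day 3, 0.59 at day 6 and 0.99 for the change (limma adjusted p = 0.000781). Without the intensity trend in the prior variance the day 6 difference and the change no longer passed (limma adjusted p = 0.0678 and 0.108), and with the mean of its probe sets, a dim one included, the day 6 difference had an adjusted p of 0.0501.

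Markers of several cell types moved with CSA at day 6, as Cryab did. On that day 5.11% of all tested probe sets passed as higher and 4.56% as lower. All 4 tested smooth muscle markers, of 6 listed, were higher with CSA at day 6 (Acta2 by 0.74, Tagln by 1.02, Actg2 by 0.77 and Des by 2.87 on the log2 scale), and by limma 0 of the 4 passed at day 3, 1 of them with an unadjusted p under 0.05. Their summed signal on the log2 scale was 12.92 and 12.98 with DMSO and 12.92 and 12.91 with CSA at day 3, then 12.8 and 12.7 with DMSO and 13.55 and 13.6 with CSA at day 6. Cnn1 and Myh11, which define differentiated smooth muscle, did not pass the filter on dim probe sets. Of 6 skeletal muscle markers 2 were tested, and 1 was higher at day 6. Of 7 tested keratinocyte markers 3 were higher (median 0.79), of 6 markers of simple epithelium 4 were lower (median -0.49), of 8 fibroblast markers 1 was lower, and of 2 tested endothelial markers 1 was higher. Their part in the Cryab result was not tested.

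Among the Hsp70 genes, Hspa1b differed most. Hspa1a and Hspa1b encode the stress-inducible Hsp70 from nearly identical sequences, so their probe sets may read both genes. For Hspa1b the signal at day 3 was 11.52 and 12.01 with DMSO and 11.37 and 11.02 with CSA, a difference of -0.57 ± 0.15 (limma adjusted p = 0.0316). The arrays of each group lay further apart here than for the other genes that passed. The call ended without DMSO replicate 2 (-0.32, adjusted p = 0.192) and without CSA replicate 2 (-0.40, adjusted p = 0.241), and the other 2 probe sets of the gene, at -0.25 and -0.30, did not pass (limma adjusted p = 0.226 and 0.193). At day 6 it read 11.35 and 11.22 with DMSO and 11.42 and 11.44 with CSA, and the difference of 0.14 ± 0.15 did not pass (limma adjusted p = 0.619). The change between the days, 0.71 ± 0.21, missed the threshold (limma adjusted p = 0.0826), and passed without DMSO replicate 1 of day 3 (0.96, adjusted p = 0.0155).

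Hspa1a read 8.79 and 8.77 with DMSO and 8.65 and 8.59 with CSA at day 3, and 8.68 and 8.66 with DMSO and 8.94 and 8.57 with CSA at day 6, where the CSA arrays lay on either side of the DMSO arrays. Neither difference, -0.17 ± 0.15 and 0.08 ± 0.15, passed (limma adjusted p = 0.587 and 0.811). Hspa8 encodes Hsc70, the Hsp70 of unstressed cells. It read 14.91 and 14.83 with DMSO and 14.93 and 14.74 with CSA at day 3, the only one of the 10 genes whose groups overlapped there. At day 6 it read 14.61 and 14.58 with DMSO and 14.66 and 14.67 with CSA. Its differences of -0.04 ± 0.07 and 0.08 ± 0.07 did not pass (limma adjusted p = 0.806 and 0.546). Another of its probe sets was lower by more at day 3, at -0.33 ± 0.11, and did not pass either (limma adjusted p = 0.0964).

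Both helpers of Hsp70 were lower at day 3. Hsph1 encodes Hsp105, an Hsp110 protein that exchanges the nucleotide of Hsp70. Its signal was 11.95 and 11.92 with DMSO and 11.48 and 11.49 with CSA, a difference of -0.45 ± 0.08 (limma adjusted p = 0.00516), 1.36-fold lower with arrays that agreed closely in both groups. At day 6 it was 11.16 and 11.17 with DMSO and 11.10 and 11.29 with CSA, and the difference of 0.03 did not pass (limma adjusted p = 0.869). The change between the days was 0.48 ± 0.11 (limma adjusted p = 0.0379), and 0.87 ± 0.16 with its other probe set (limma adjusted p = 0.0118). With the first probe set the change passed in 1 of the 8 fits that left out an array, in which the adjusted p ran from 0.0236 without CSA replicate 1 of day 6 to 0.127 without CSA replicate 1 of day 3. Without each other array in turn it was 0.0768 and 0.0676 (DMSO, day 3), 0.118 (CSA, day 3), 0.109 and 0.114 (DMSO, day 6) and 0.103 (CSA, day 6).

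Dnajb1 encodes Hsp40, a J protein that starts the ATP cycle of Hsp70. Its signal was 11.38 and 11.29 with DMSO and 11.02 on both CSA arrays at day 3, a difference of -0.31 ± 0.08 (limma adjusted p = 0.0240). The second Dnajb1 probe set gave -0.37 ± 0.08 (limma adjusted p = 0.0168). The call ended without DMSO replicate 1 (adjusted p = 0.108), CSA replicate 1 (0.127) or CSA replicate 2 (0.123). At day 6 the arrays read 11.03 and 11.10 with DMSO and 11.08 and 11.11 with CSA, and the difference of 0.02 did not pass (limma adjusted p = 0.896).

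Hsp90aa1 encodes the inducible cytosolic Hsp90, which matures kinases and steroid receptors. It read 14.55 and 14.41 with DMSO and 14.36 and 14.31 with CSA at day 3, and 14.03 and 13.87 against 13.94 and 13.89 at day 6. Neither difference passed (-0.15 ± 0.07, limma adjusted p = 0.230; -0.03 ± 0.07, limma adjusted p = 0.836). Hspd1 encodes Hsp60, the barrel of the mitochondrial chaperonin, and Hspe1 encodes Hsp10, its lid. Hspd1 read 14.11 and 14.02 with DMSO and 13.97 and 13.90 with CSA at day 3, and 13.74 and 13.61 against 13.54 and 13.66 at day 6. Hspe1 read 13.48 and 13.43 with DMSO and 13.38 and 13.33 with CSA at day 3, and 12.80 and 12.77 against 12.78 on both CSA arrays at day 6. Their CSA differences of -0.13 and -0.10 at day 3 and of -0.08 and -0.01 at day 6 did not pass (limma adjusted p = 0.300, 0.318, 0.570 and 0.966).

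**Figure D2:**
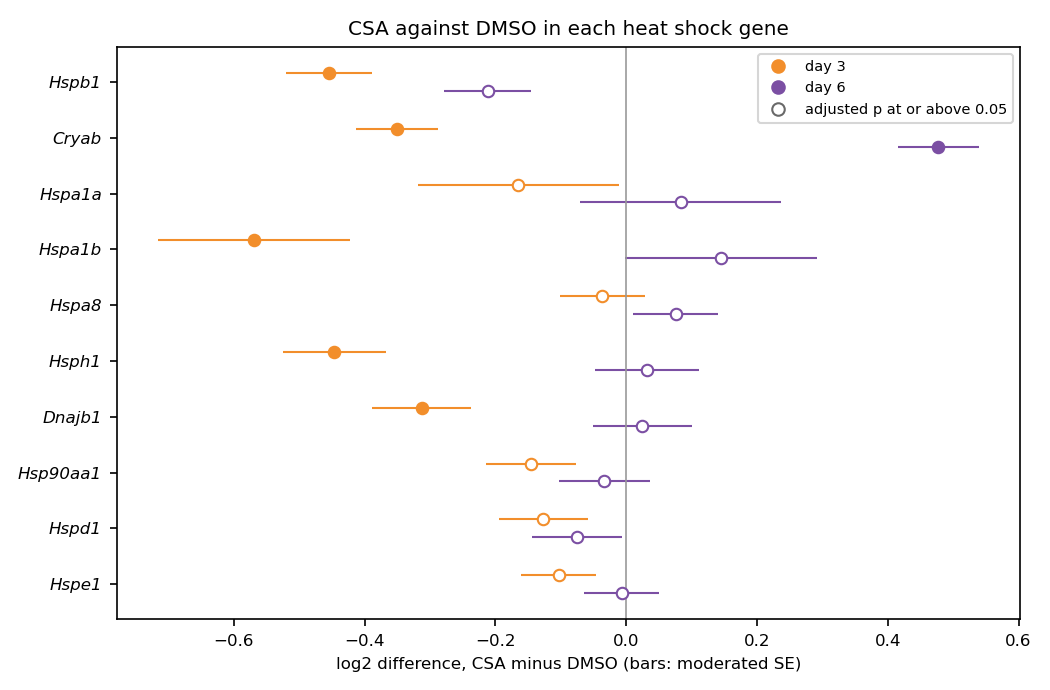
Log2 difference between CSA and DMSO (horizontal axis; bars are moderated standard errors) for each heat shock gene at day 3 and day 6. Filled points had a limma adjusted p under 0.05. At day 3 all 10 points lie below 0 and 5 are filled, and at day 6 the only filled point is Cryab at 0.48.

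At day 6, then, 1 of the 10 genes was higher with CSA and 0 were lower, against 5.11% and 4.56% of all tested probe sets (9.67% in either direction). In 3 genes both CSA arrays lay above both DMSO arrays and in 1 below them, and 53.8% of all tested probe sets had groups that did not overlap. The median difference of the 10 genes was 0.03, and -0.01 over all tested probe sets. At an unadjusted limma p under 0.05 the number was 2 of 10 genes, against 23.7% of all tested probe sets. The change of the CSA effect from day 3 to day 6 was above 0 in all 10 genes, with a median of 0.25 (0.01 over all tested probe sets), and passed for 2, Cryab and Hsph1. Over all tested probe sets 4.23% passed for this change, 1.84% as higher and 2.39% as lower. The 2 CSA effects come from separate arrays, and the change was tested in a single model of all 8. It subtracts the day 3 difference, which was negative in all 10 genes, so its shared sign is not a separate result.

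The same pattern held over the separate probe sets of these genes, which share a target and are not independent. Of the 25 probe sets 22 were bright enough to be tested. At day 3 all 22 were below 0, as were 51.3% of all tested probe sets, and 9 passed as lower. At day 6 there were 12 below 0, as were 50.7% of all tested probe sets. There 2 passed as higher, both of Cryab, and 1 as lower, of Hspb1. For the change between the days 0 of 22 were below 0, against 49.3% of all tested probe sets, and 4 passed as higher. This change subtracts the day 3 difference, negative in all 22, so its sign is not a separate result.

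**Figure D3:**
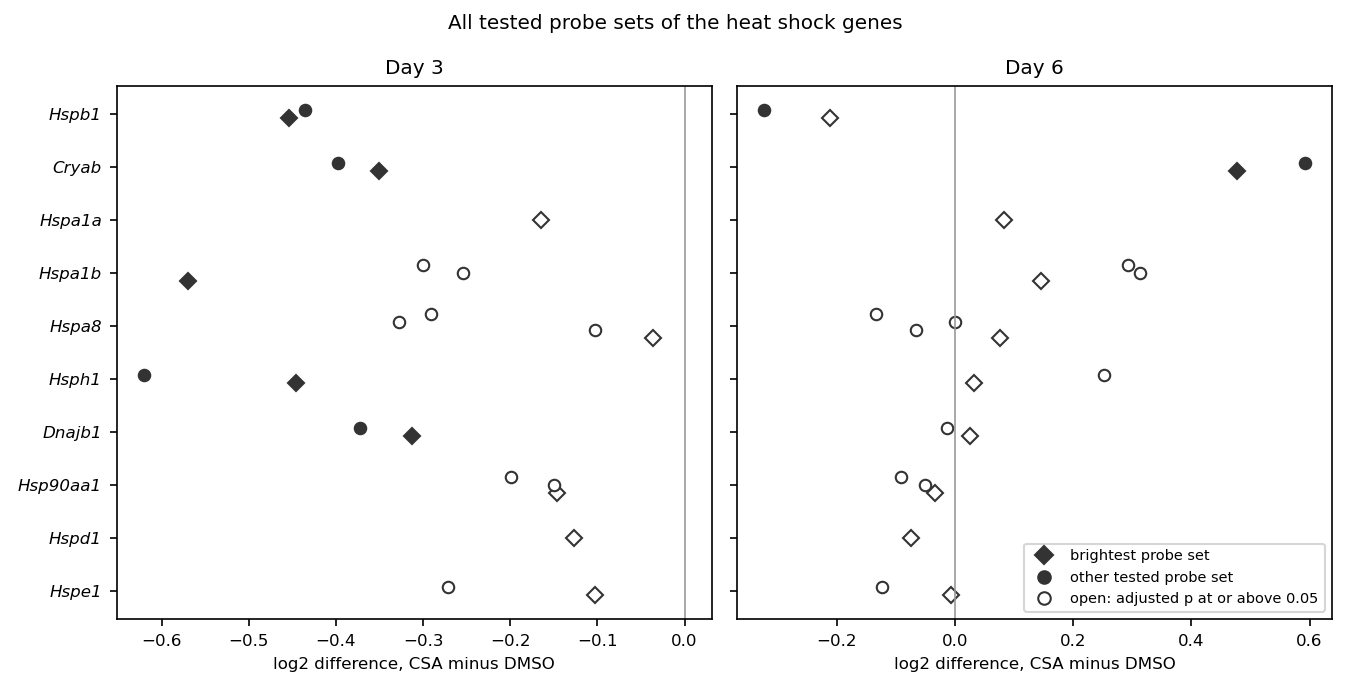
Log2 difference between CSA and DMSO (horizontal axis) for all 22 tested probe sets of the 10 genes at day 3 (left) and day 6 (right). Diamonds are the brightest probe set of a gene, circles its other probe sets, and filled symbols had a limma adjusted p under 0.05. All 22 symbols lie left of 0 at day 3.

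All 5 day 3 calls depended on the variance model. Without the intensity trend in limma's prior variance, 0 of the 10 genes passed at day 3. The limma adjusted p of the 5 genes called above then ran from 0.0864 to 0.206. Of all probe sets 442 instead of 2588 passed. In that fit 5 of the 10 genes had an unadjusted p under 0.05, against 20.1% of all tested probe sets. Of the 5 genes, 4 were read by probe sets marked _a_at, which can read several transcripts. Without all probe sets marked _a_at, _s_at or _x_at, 7 of the 10 genes could be read and 1, Dnajb1, passed at day 3. Hspb1, Cryab and Hsph1 could not be read there, so that setting does not test their calls. Without CSA replicate 2 of day 3, 3 of the 10 genes passed, and Hspb1, Cryab and Hsph1 passed whichever array of day 3 was left out.

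Between day 3 and day 6 most of these genes fell under the solvent. In DMSO 8 of 10 passed as lower and 1, Hspb1, as higher, against 16.8% and 23.8% of all tested probe sets (40.6% in either direction). The median was -0.43 for the 10 genes and 0.10 for all tested probe sets. By the brightest probe sets the largest fall was that of Cryab, -0.96 ± 0.06 or 1.95-fold (limma adjusted p = 8.68e-07). Hsph1 followed at -0.77 ± 0.08, 1.70-fold (limma adjusted p = 2.02e-05), and Hspe1 at -0.67 ± 0.06, 1.59-fold (limma adjusted p = 5.52e-06). This order depended on the probe set, since the other tested ones read -1.13 for Hsph1, -0.96 for Hspe1 and -0.88 for Cryab. Hsp90aa1 fell by 0.53 ± 0.07, Hspa1b by 0.48 ± 0.15, Hspd1 by 0.39 ± 0.07, Hspa8 by 0.28 ± 0.07 and Dnajb1 by 0.26 ± 0.08 on the log2 scale. Hspa1a, at -0.11 ± 0.15, did not pass (limma adjusted p = 0.615). In all 10 genes the arrays of the 2 days did not overlap in DMSO, as in 70.2% of all tested probe sets.

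Under CSA fewer of these genes passed between the days. Of the 10 genes 4 passed as lower, Hspe1 (-0.57 ± 0.06, limma adjusted p = 3.58e-05), Hsp90aa1 (-0.42 ± 0.07, 0.000968), Hspd1 (-0.34 ± 0.07, 0.00344) and Hsph1 (-0.29 ± 0.08, 0.0170), and Hspb1 passed as higher. Of all tested probe sets 12.8% passed as lower, 18.1% as higher and 30.9% in either direction, and the median was -0.15 for the 10 genes and 0.12 for all tested probe sets. Cryab changed by -0.13 ± 0.06 under CSA and did not pass (limma adjusted p = 0.133), where it had fallen by 0.96 in DMSO. The difference between these courses is the change of 0.83 tested above. After centring each array on its median, Cryab read -0.35 under CSA and passed as lower (limma adjusted p = 0.00108). As deposited, its second tested probe set read 0.11 under CSA and did not pass (limma adjusted p = 0.250). Hspa1b at 0.24, Dnajb1 at 0.07, Hspa1a at 0.14 and Hspa8 at -0.17 did not pass either (limma adjusted p from 0.0744 to 0.535). The arrays of the 2 days did not overlap in 9 of the 10 genes, 3 higher and 6 lower, as in 65.9% of all tested probe sets.

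Cell type markers moved over the same days. Over all tested probe sets 23.8% passed as higher and 16.8% as lower in DMSO, and 18.1% and 12.8% in CSA. In DMSO 7 of 8 fibroblast markers passed as higher and 1 as lower (median 1.80), and all 6 markers of simple epithelium passed as higher (median 1.78). In CSA 6 of 8 fibroblast markers passed as higher and 1 as lower (median 1.44), and 4 of 6 markers of simple epithelium as higher (median 1.94). On the log2 scale the summed fibroblast signal at day 6 was 15 and 14.98 in DMSO and 14.72 and 14.71 in CSA, and that of simple epithelium was 15.33 and 15.24 in DMSO and 14.85 and 14.84 in CSA, all above the values of day 3 given earlier. Their part in the day course of the heat shock genes was not tested.

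**Figure D4:**
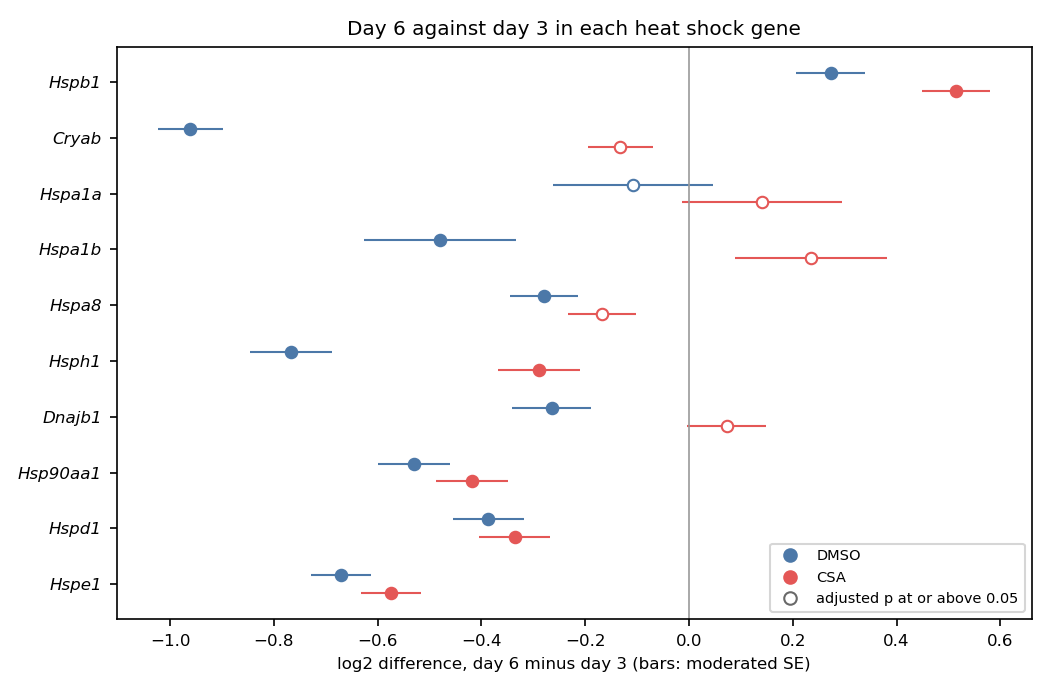
Log2 difference between day 6 and day 3 (horizontal axis; bars are moderated standard errors) for each heat shock gene in DMSO and in CSA. Filled points had a limma adjusted p under 0.05. Cryab lies at -0.96 in DMSO and at -0.13 in CSA, Hspe1 at -0.67 and -0.57, and Hspb1 at 0.27 and 0.51 (0.02 and 0.30 after centring each array on its median).

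The day course also depends on how arrays are scaled. The median signal of the tested probe sets was higher on day 6 by 0.25 in DMSO and by 0.22 in CSA, whereas it moved by 0.01 and -0.02 between treatments. Hspb1 was 0.27 ± 0.07 higher at day 6 in DMSO (limma adjusted p = 0.00630) and 0.51 ± 0.07 in CSA (limma adjusted p = 0.000183), which centring each array on its median turned into 0.02 (adjusted p = 0.820) and 0.30 (adjusted p = 0.00530). With that centring 0 of the 10 genes passed as higher and 8 as lower in DMSO, and 1 and 6 in CSA; quantile normalisation ended the falls of Hspa8 and Hspd1 in DMSO (adjusted p = 0.0586 and 0.149) and of Hspd1 in CSA (0.123). Over all tested probe sets the split in DMSO was 6427 higher and 4543 lower as deposited, 4039 and 7540 centred, and 4986 and 5322 quantile normalised. In CSA it was 4899 and 3459, 2814 and 6217, and 3513 and 3653.

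Single arrays decided some of the smaller day differences. In DMSO the fall of Hspa1b did not pass without replicate 2 of day 3 or of day 6 (adjusted p = 0.203 and 0.127), nor that of Dnajb1 without replicate 1 of either day (0.0847 and 0.101). In CSA the fall of Hsph1 did not pass without replicate 1 or 2 of day 3 (0.0788 and 0.0828) or replicate 1 of day 6 (0.122). Hspa8 passed as lower in CSA without replicate 2 of day 3 (0.0234). The brightest probe set of Hspa8 and its dimmest tested one differed in sign over the days. The dimmest read 0.33 ± 0.18 in DMSO and 0.49 ± 0.18 in CSA, and passed in neither (limma adjusted p = 0.163 and 0.0570). The remaining Hspa8 probe sets passed as lower in both treatments. They read -0.26 and -0.71 in DMSO (limma adjusted p = 0.00856 and 0.00041) and -0.22 and -0.38 in CSA (limma adjusted p = 0.0257 and 0.0242).

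Across the 8 arrays Hsp90aa1, Hspd1 and Hspe1 followed each other closely, with Pearson's r of 0.979 for Hsp90aa1 and Hspe1, 0.972 for Hsp90aa1 and Hspd1 and 0.957 for Hspd1 and Hspe1. Hspb1 ran the other way, at -0.65 with Hspe1. These values describe 8 arrays in 4 groups, whose main contrast is the day. Among all genes the arrays of Hspb1 were most like those of Fam110a (0.994), those of Cryab most like those of Basp1 (0.987), those of Hsph1 most like those of Ccna2 (0.993), those of Dnajb1 most like those of Poldip3 (0.965) and those of Hspa1b most like those of Kif20b (0.941).

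Other chaperone genes were read from 8 lists of 79 further cytosolic and mitochondrial genes, of which 75 had a probe set of their own and 68 were tested. At day 3, 3 of the 68 passed as higher with CSA and 9 as lower, with a median of -0.04, against 5.35% and 4.23% of all tested probe sets. At day 6 there were 4 and 4, with a median of -0.05, against 5.11% and 4.56%. In the HSP90 system Stip1, which encodes the adaptor HOP between Hsp70 and Hsp90, was -0.52 ± 0.08 lower at day 3 (limma adjusted p = 0.00311), and so was the kinase adaptor Cdc37 at -0.27 ± 0.07 (limma adjusted p = 0.0265). The other 8 tested genes of this list did not pass at day 3, and at day 6 the immunophilins Fkbp5 (-0.48) and Fkbp4 (-0.57) passed as lower. Another probe set of Fkbp4 read 0.23 and did not pass (adjusted p = 0.826). Without DMSO replicate 2 of day 6 both calls ended (0.0741 and 0.0756), as did that of Fkbp4 without CSA replicate 2 (0.0595). The Cdc37 call at day 3 ended in all 4 fits that left out an array (adjusted p from 0.0544 to 0.161), while that of Stip1 held in all 4.

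The cytosolic chaperonin TRiC and its partner prefoldin fold actin and tubulin. Of their 13 genes 4 passed as lower at day 3, Cct6a at -0.22, Vbp1 at -0.25 and Cct8 at -0.28 among them, against 4.23% of all tested probe sets, and by limma 0 passed at day 6, where 4 had an unadjusted p under 0.05. The median was -0.19 at day 3 and -0.12 at day 6. Between the days 11 of the 13 passed as lower in each treatment, with a median of -0.41 in DMSO and -0.27 in CSA, against 16.8% and 12.8% of all tested probe sets. The day 3 calls of Cct6a and Cct8 ended whichever array of that day was left out (adjusted p from 0.0639 to 0.200), and that of Vbp1 ended in 3 of the 4 such fits (up to 0.174).

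Of 10 tested J proteins 1 passed as higher with CSA at day 3 and 2 as lower (median -0.03), against 5.35% and 4.23% of all tested probe sets. At day 6, 3 passed as higher and 1 as lower (median 0.11), against 5.11% and 4.56%. Dnaja4 was among those higher at day 6 (0.81 ± 0.17, limma adjusted p = 0.0137), and Dnajc8 was lower there (-0.28 ± 0.07, limma adjusted p = 0.0191). The genes lower at day 3 were Dnaja1 (-0.31) and Dnajb6 (-0.25), partners of Hsp70. The Dnaja1 call held only without DMSO replicate 2 among the 4 fits that left out an array (adjusted p = 0.00558, otherwise 0.137 to 0.166), and that of Dnajb6 held in none (0.0936 to 0.248). Dnajc5, the J protein of synaptic vesicles, was higher at day 3 (0.58 ± 0.09) and day 6 (0.51 ± 0.09), the latter not passing without DMSO replicate 1 (0.0536). Its brightest probe set that is not marked as reading several transcripts gave 0.44 at day 3 and 0.36 at day 6 and passed on neither day (adjusted p = 0.276 and 0.393).

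None of the other small heat shock genes passed as lower with CSA. For CSA 5.35% of all tested probe sets passed as higher at day 3 and 5.11% at day 6, and 4.23% and 4.56% as lower. Of 4 tested genes Hspb6 was higher with CSA at day 3 (0.93 ± 0.21, limma adjusted p = 0.0164, but 0.0872 to 0.0955 without DMSO replicate 1 or either CSA replicate) and Hspb8 at day 6 (0.54 ± 0.08, limma adjusted p = 0.00192), with 0 lower on either day, also at an unadjusted limma p under 0.05. Of 13 mitochondrial chaperones and proteases 1 passed as higher at day 3, the iron-sulfur cluster co-chaperone Hscb at 0.67 (adjusted p = 0.0838 without CSA replicate 1), and by limma 0 passed at day 6, where 3 had an unadjusted p under 0.05. Over the days 6 of these 13 genes passed as higher and 3 as lower in DMSO (median 0.17), and 1 and 5 in CSA (median -0.05), against 23.8% and 16.8% of all tested probe sets in DMSO and 18.1% and 12.8% in CSA. Hscb was higher by 0.81 in DMSO, while the mitochondrial Hsp70 gene Hspa9 fell by 0.51 in CSA and its nucleotide exchange factor Grpel1 fell by 0.76 in DMSO and by 0.77 in CSA on the log2 scale. None of the 4 tested genes for heat shock factors and their regulators passed for CSA on either day, and their only unadjusted limma p under 0.05 was that of Hsbp1 at day 6, named here after its value was seen. Hsf1, Hsp90ab1, Ptges3 and Ppid were not analysed here.

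The chaperones of the endoplasmic reticulum, most of which answer to the unfolded protein response, are given for comparison. The list also holds Serpinh1, the collagen chaperone Hsp47, a known target of heat shock factor 1. Of 13 genes 6 passed as higher at day 3 and 7 at day 6, against 5.35% and 5.11% of all tested probe sets. On either day 0 were lower, also at an unadjusted limma p under 0.05, and the median was 0.29 and 0.26. Dnajc3, which restrains the kinase PERK, was higher by 0.63 at day 3 and by 0.68 at day 6. The difference between these genes and the 10 heat shock genes was not tested.

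**Figure D5:**
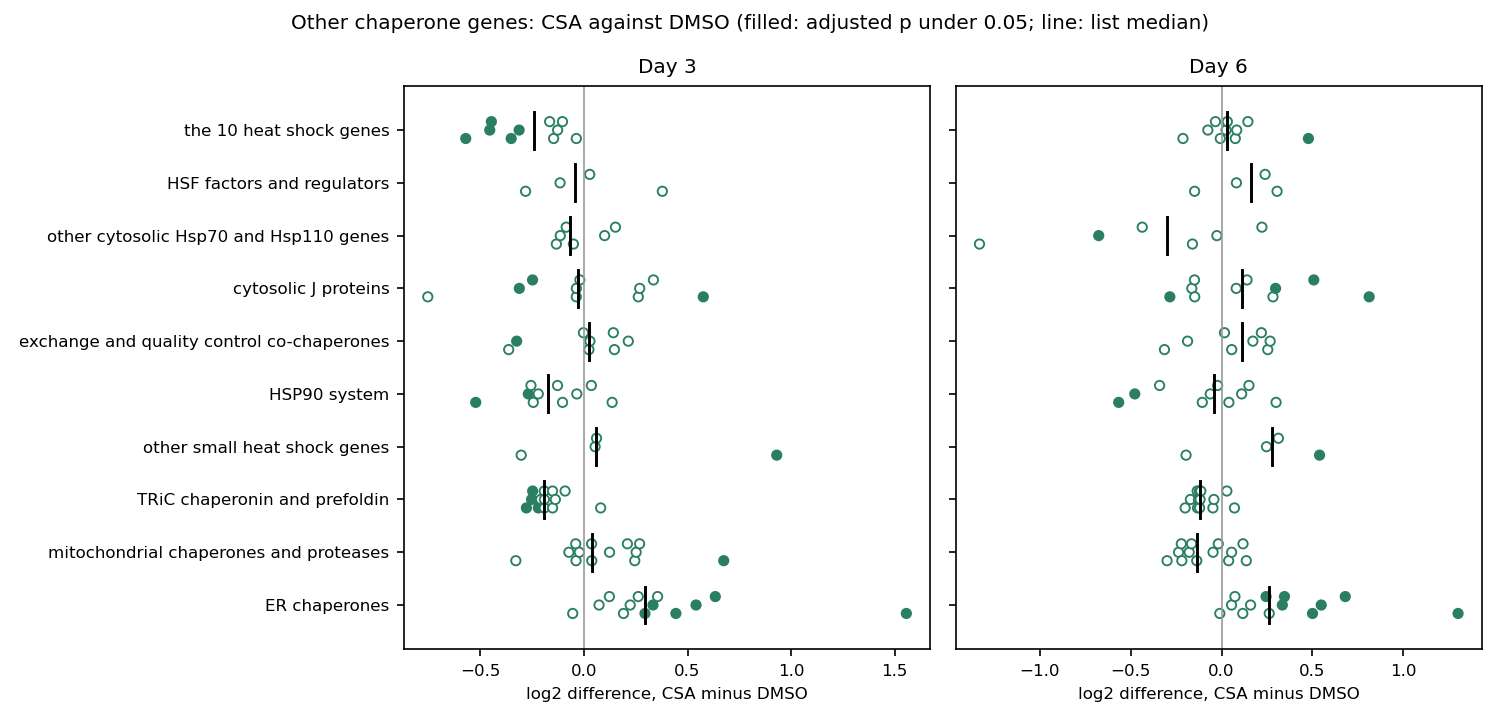
Log2 difference between CSA and DMSO (horizontal axis) at day 3 (left) and day 6 (right) for the 10 heat shock genes and for each list of other chaperone genes. Each point is a tested gene, filled where its limma adjusted p was under 0.05, and black lines are list medians. The median of the 10 genes lies at -0.24 at day 3 and 0.03 at day 6, and that of the endoplasmic reticulum genes at 0.29 and 0.26.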

How the data were processed

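RNA from 8 cultures was hybridised to Affymetrix 3' expression arrays, 1 array per sample. The table the authors deposited holds log2 signals, a single value for each probe set on each array. They were made with MAS5, per the submitters' processing notes; the version and scaling target are not stated there. MAS5 scales each array by a constant, so a shift of most genes between days can look like a scaling shift. On each array 110 to 259 values stood at 0. The table gave 45037 probe sets, of which 34945 had 1 gene symbol in the platform annotation, 932 had several and 9160 had none. By Entrez identifier 34741 were matched to RefSeq.

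Differences were computed in R 4.3.3 with limma 3.58.1 (lmFit, eBayes with an intensity trend), from 1 mean per group over all 8 arrays, with 4 residual degrees of freedom and no replicate block. Probe sets with a mean at or above the 40th percentile (log2 signal 5.37) were tested, 27022 in all, and p-values were adjusted by Benjamini-Hochberg over them, two-sided, with a threshold of 0.05. An error after ± is the moderated standard error. With 2 arrays against 2 an exact permutation test cannot go below p = 0.333, so none was used, and the number of arrays limits the precision. The submitters call the arrays of a group biological repeats and do not say what was repeated, so the p-values measure the spread between these arrays.

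The genes, the lists of other chaperones and of cell type markers, and the tests were chosen with earlier results of these data known. Of each list, up to 3 tested genes with the smallest p among those that passed in a comparison were open to being named, and the 3 genes most like each gene that passed for CSA. Alternatives covered scaling, the filter, the prior variance, low signals, probe set choice, the arrays fitted, the replicate block and leaving out each array. Scan dates and detection calls were not used here.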

Additional observations from a re-analysis of the deposited data

Results flagged for a closer look

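For 2 of the 10 heat shock genes the effect of CSA differed between day 3 and day 6 by the test of the difference itself. Of all tested probe sets 4.23% passed this test, 1.84% as higher and 2.39% as lower. For Cryab the effect at day 6 minus that at day 3 was 0.83 on the log2 scale (limma adjusted p = 0.000914). For Hsph1 it was 0.48 (limma adjusted p = 0.0379). With single arrays left out the change ran from 0.76 to 0.89 for Cryab and from 0.38 to 0.57 for Hsph1. Without the intensity trend in the prior variance 0 of the 10 genes passed this test.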

How the results depend on the processing

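With 2 arrays per group the number of arrays limits every count. Without the intensity trend, limma passed 442 probe sets for CSA at day 3, 694 at day 6 and 0 for the change between the days (5425, 5475 and 4287 at an unadjusted p under 0.05), and of the 10 heat shock genes 0, 0 and 0 (5, 1 and 4 unadjusted), with 5 between the days in DMSO and 3 in CSA. Without probe sets marked as reading several transcripts, 1672 passed at day 3 and 1737 at day 6, fewer probe sets being tested. Of the 7 heat shock genes still read 1 passed at day 3, 0 at day 6 and 0 for the change. Between the days 5 of them passed in DMSO and 3 in CSA. Hspb1, Cryab and Hsph1 could not be read in this setting. It therefore could not test the day 6 call of Cryab or the calls of Cryab and Hsph1 for the change. Of the 10 genes, 2 passed at day 6 after quantile normalisation (Cryab higher, Hspb1 lower) and 2 with all probe sets of a gene averaged (Hsp90aa1 higher, Hspb1 lower), and 1 passed for the change without a filter. Leaving out an array, with the lone array of its group assumed to vary like the other groups, gave 1076 to 2008 probe sets at day 3, 1112 to 1717 at day 6, 390 to 994 for the change, 8106 to 9380 in DMSO and 5417 to 6068 in CSA, and 3 to 4, 1 to 1, 1 to 2, 8 to 8 and 4 to 5 of the 10 genes.

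Signs turned as follows, the cause not tested except where stated. After quantile normalisation Hspd1 read -0.017 for the change, and in CSA between the days Cryab 0.030, Hspa1a -0.041 and Hspa8 0.0088. After centring on the median Hspe1 read 0.018 at day 6, and in CSA between the days Hspa1a -0.075 and Dnajb1 -0.14. Without the marked probe sets Hspa8 read -0.13 at day 6, 0.33 in DMSO and 0.49 in CSA, Hspa1b -0.0025 in CSA, and Fkbp4 0.23 at day 6 and -0.33 in DMSO. With the mean of all probe sets Hspa8 read -0.031 and Hsp90aa1 1.02 at day 6 (adjusted p = 0.0314), and in CSA Hsp90aa1 0.24 and Cryab 0.24; that mean includes dim probe sets which the filter leaves out. Leaving out an array moved differences that had not passed across 0: Hspa8 at day 3 (-0.13 to 0.060), and at day 6 Hspa1a (-0.10 to 0.27), Hsph1 (-0.064 to 0.13), Dnajb1 (-0.010 to 0.060), Hsp90aa1 (-0.12 to 0.050) and Hspe1 (-0.025 to 0.011), Hspd1 for the change (-0.014 to 0.12) and Hspa1a in CSA between the days (-0.046 to 0.33).

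Equal replicate numbers did not pair the arrays: deviations from the group means correlated at -0.0034 to 0.034. With the replicate block 5, 1, 2, 9 and 6 of the 10 genes passed in the comparisons in the order above, the addition being Hspa8 in CSA between the days (-0.17, adjusted p = 0.0329). Of all 27022 tested probe sets 2724, 2742, 1208, 11131 and 8516 passed with the block.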
